A study of Mus musculus with 16 samples.

Results

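The 10 genes described are the insulin-like growth factor (IGF) ligands Igf1 and Igf2, the receptors Igf1r and Igf2r, and the binding proteins Igfbp2, Igfbp3, Igfbp4, Igfbp5, Igfbp7 and Igfbpl1, out of 19937 genes measured in embryonic mouse hearts. They were taken from a list of 10 symbols, each read through a probe set that the array's annotation gives to 1 gene; the binding proteins Igfbp1 and Igfbp6 were also measured and are described with the other pathway genes. Each had exactly 1 such probe set, and all 10 passed the filter on dim probe sets (mean above percentile 40). The study deleted Chd7, a chromatin remodelling enzyme mutated in CHARGE syndrome, in the anterior mesoderm and measured 4 groups of 4 whole hearts on a C57BL/6 background: Chd7 fl/fl;Mesp1-Cre embryos at E13.5, control embryos at E13.5, Chd7 fl/fl;Mesp1-Cre embryos at E11.5 and control embryos at E11.5, where E gives the embryonic day. Each heart was measured singly on an Affymetrix Mouse Gene 1.0 ST array, in 16 arrays in all.

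Mesp1-Cre recombines in the early mesoderm that gives rise to most heart cells, so cells of neural crest origin keep Chd7. The labels call the controls WT, whereas the study's methods give them the Mesp1-Cre transgene with 2 unfloxed alleles. The cross in the labels would leave every embryo at least 1 floxed allele, so the control genotype could not be settled. Chd7 itself, read first as a check of the labels, was at 40.8% of the control level in mutant hearts at E11.5 (log2 FC −1.29, limma adjusted p = 0.00132) and at 47.3% at E13.5 (log2 FC −1.08, adjusted p = 0.0209) for the brightest of its 30 probe sets, and mutant and control hearts did not overlap at either stage. Markers of cardiomyocytes averaged 12.63 to 12.98 log2 units per heart in all groups. Those of hepatocytes and foregut epithelium averaged 5.92 to 7.27. No 2 arrays held identical values. 3 hearts stood apart: mutant E11.5 replicate 4, in which the median of 19 hypoxia-responsive genes was 1.01 log2 units above the control mean (0.05 to 0.22 in the other mutant hearts of that stage), mutant E11.5 replicate 3, and control E13.5 replicate 1. In those hearts 38, 27 and 21 genes were more than 1 log2 unit above every other heart of the stage, against 0 to 5 genes in each other heart. Y-linked genes were high in 2 of 4 mutant and 4 of 4 control hearts at E11.5, and in 1 of 4 mutant and 2 of 4 control hearts at E13.5.

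IGF1 and IGF2 are secreted growth factors that signal through IGF1R, a tyrosine kinase receptor upstream of the PI3K and AKT cascade, and IGF2 is a strong mitogen of the developing heart wall in mice. IGF2R, the mannose 6-phosphate receptor, carries IGF2 to the lysosome for degradation. The IGF binding proteins hold IGFs in the circulation and the extracellular matrix, and proteases such as PAPP-A release the bound ligand. Levels below are RMA log2 values, so 1 unit is a doubling, and a gene was called changed where limma gave an adjusted p under 0.05 over all 34760 probe sets and a log2 FC above 0.5 in size.

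At E11.5, Igfbpl1 was downregulated and Igfbp3 upregulated in Chd7 fl/fl;Mesp1-Cre hearts, and the ligands, receptors and the other binding proteins were not called. The question of this comparison was what mesodermal loss of Chd7 did to gene expression in the heart. 1 of the 10 members was called lower and 1 higher, against 0.15% of all genes called lower and 0.1% called higher. The members were chosen with earlier results of these data known, so such counts are no test of the family. The median log2 FC of the members was 0.05, against 0.00 over all genes. In whole hearts, fewer cells of a type and less RNA per cell cannot be told apart. The plot of log2 FC with confidence intervals shows both stages side by side.

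**Figure D1:**
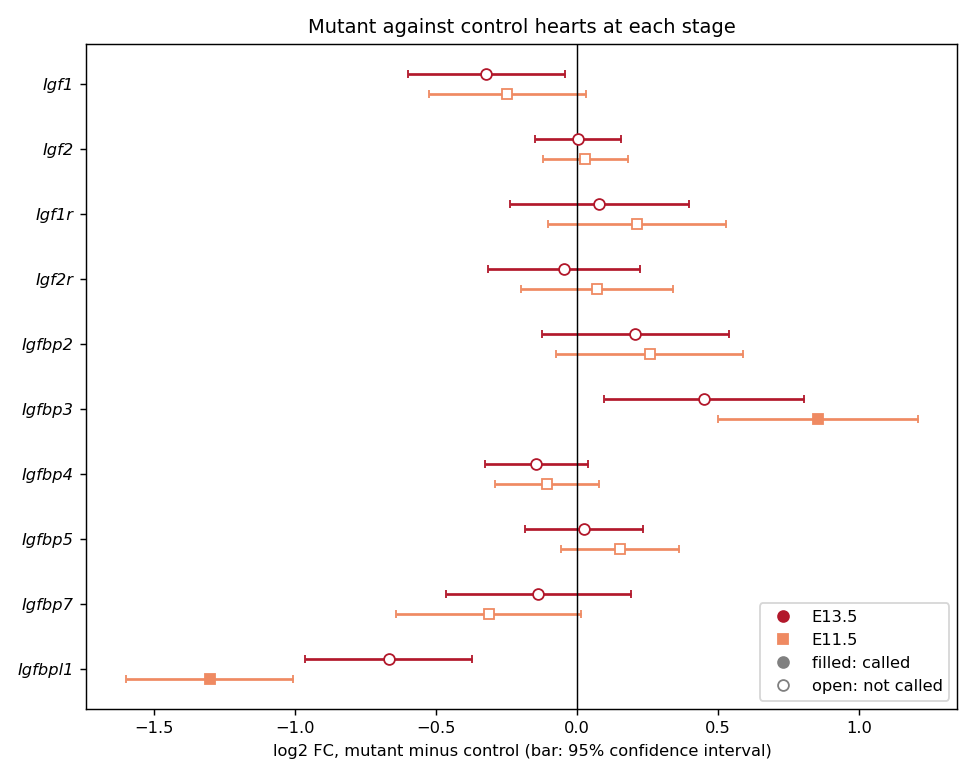
Log2 FC of the 10 IGF family genes, mutant minus control, at E13.5 and E11.5, with 95% confidence intervals from limma; filled symbols were called. Igfbpl1 lay furthest below 0 at both stages (−0.67 at E13.5 and −1.30 at E11.5) and Igfbp3 furthest above it (0.45 and 0.85).

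Igfbpl1, a secreted relative of the IGF binding proteins, had log2 levels of 8.55, 8.95, 8.43 and 8.74 in the mutant hearts at E11.5, against 9.85, 10.13, 10.11 and 9.78 in the control hearts. All 4 mutant hearts lay below all 4 control hearts. Its level was 40.6% of control (95% CI 33.0 to 49.8%; log2 FC −1.30, SE 0.14, adjusted p = 0.000939), and the exact permutation test gave p = 0.0286, the smallest that 4 against 4 hearts allow. The call was lost only when the stages were fitted separately (adjusted p = 0.0708), and no single heart decided it (adjusted p 0.000648 to 0.00704 with each heart left out). Without the 3 hearts that stood apart the log2 FC was −1.22. Markers of cushion and valve mesenchyme averaged 9.62 to 9.86 log2 units in mutant hearts and 9.90 to 10.19 in control hearts at that stage, with 0 of the 6 markers called and a median log2 FC of −0.33. At E13.5 the averages of this list, 1 of 12 marker lists read, overlapped (9.38 to 9.76 in mutant and 9.70 to 10.09 in control hearts). By histology, the paper saw no shortage of mesenchymal cells in the cushions at E11.5. Whether the markers bear on Igfbpl1 was not tested.

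Igfbp3, the main carrier of circulating IGFs in adults, had log2 levels of 10.01, 9.64, 10.28 and 10.40 in mutant hearts at E11.5, against 9.17, 9.20, 9.44 and 9.10 in control hearts. Again the groups did not overlap, and mutant E11.5 replicate 4, the heart with the raised hypoxia genes, was the highest. The increase was 1.81-fold (95% CI 1.41 to 2.31; log2 FC 0.85, SE 0.17, adjusted p = 0.0453; exact permutation p = 0.0286). This call lay at the threshold. It was lost when 13 of the 16 hearts were left out one at a time (adjusted p 0.0532 to 0.113 in those cases) and in 6 of 13 other settings, with a positive log2 FC in every case. Without mutant E11.5 replicate 4 the log2 FC was 0.75 (adjusted p = 0.104), and without the 3 hearts that stood apart it was 0.60 (adjusted p = 0.254).

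The other 8 members had log2 FCs of −0.31 to 0.26 at E11.5, and their groups overlapped. Non-overlapping hearts, seen for 2 of the 10 members, were found for 3.93% of all genes. Igfbp7, a low-affinity IGF binder secreted by endothelial cells, had the lowest value after Igfbpl1, at 9.45, 9.33, 9.58 and 10.15 in mutant hearts and 10.09, 9.81, 10.04 and 9.81 in control hearts. Its highest mutant heart was replicate 4. The log2 FC was −0.31 (SE 0.15, adjusted p = 0.557), and −0.55 (adjusted p = 0.168) without the hearts that stood apart. Igf1, a ligand, measured 10.57, 10.45, 10.13 and 10.05 in mutant hearts and 10.46, 10.58, 10.74 and 10.40 in control hearts. 2 mutant hearts were below all controls and 2 were inside their range (log2 FC −0.25, adjusted p = 0.595), and the 2 low ones were the hearts that stood apart, without which the log2 FC was −0.04. Igf2, the other ligand, gave values in all 8 hearts between 13.44 and 13.53 (log2 FC 0.03, 95% CI −0.12 to 0.18).

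Igf1r was at 10.57 to 11.42 in mutant hearts and 10.66 to 10.88 in control hearts (log2 FC 0.21, adjusted p = 0.711), the highest being mutant replicate 4. Igf2r was at 12.20 to 12.67 in mutant hearts and 12.26 to 12.65 in control hearts (log2 FC 0.07). Igfbp2, a binding protein abundant in embryonic tissue, was at 9.11 to 9.74 in mutant hearts and 8.72 to 9.38 in control hearts (log2 FC 0.26, adjusted p = 0.655). Igfbp5, which binds extracellular matrix, was at 12.29 to 12.55 in mutant hearts and 12.10 to 12.49 in control hearts (log2 FC 0.15). Igfbp4, an inhibitory binding protein cleaved by PAPP-A, was at 10.78 to 10.95 in mutant hearts and 10.80 to 11.13 in control hearts (log2 FC −0.10). None of these was called, and in each the hearts of the groups overlapped.

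**Figure D2:**
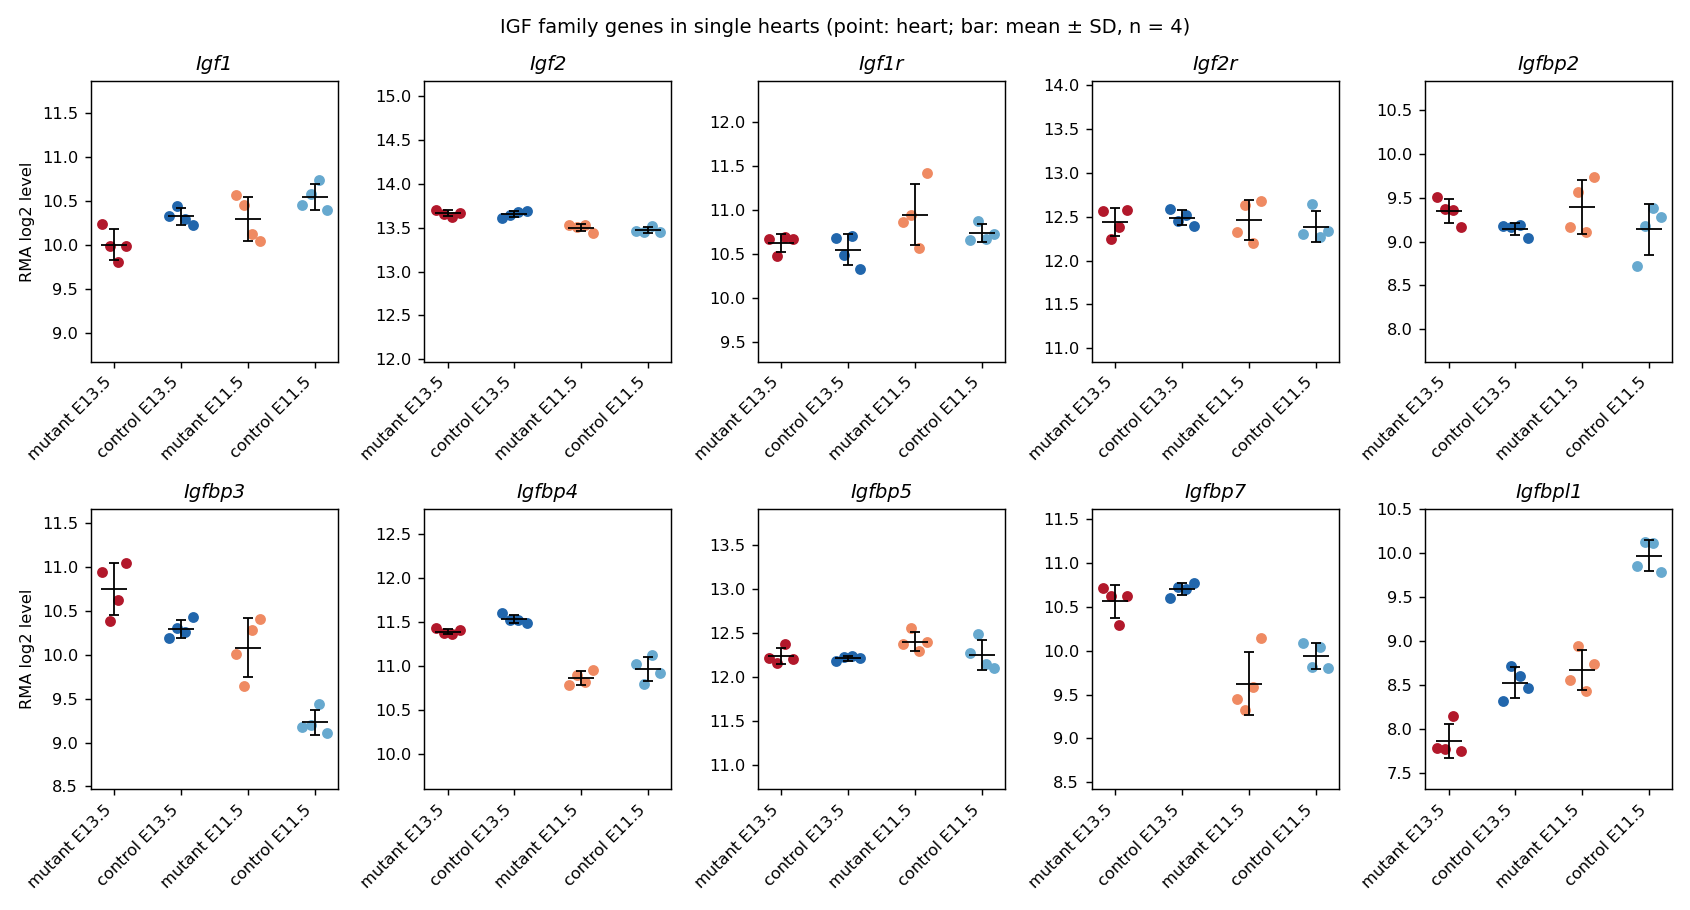
RMA log2 levels of the 10 IGF family genes in single hearts, in panels that span equal ranges with the vertical position set per gene; points are hearts and bars are the mean ± SD (n = 4). Igfbpl1 separates mutant from control hearts at both stages, and Igfbp3 does so at E11.5.

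At E13.5 none of the 10 members was called, by the limma fit used here, against 0.0301% of all genes called lower and 0.015% called higher. Those shares are 6 and 3 genes on the deposited values. The counts were 1 and 1 after quantile and 9 and 6 after loess normalisation. 3 members had an unadjusted p under 0.05, as did 786 of the 19937 genes. Igfbpl1 was at 7.78, 7.77, 8.15 and 7.74 in mutant hearts and 8.32, 8.72, 8.60 and 8.46 in control hearts, so the groups again did not overlap. Its level was 63.0% of control (95% CI 51.3 to 77.3%; log2 FC −0.67, SE 0.14, adjusted p = 0.151; exact permutation p = 0.0286). With array weights it was called (adjusted p = 0.0158). Igfbp3 was at 10.94, 10.39, 10.63 and 11.04 in mutant hearts and 10.19, 10.31, 10.26 and 10.43 in control hearts. Its lowest mutant heart was inside the control range (log2 FC 0.45, SE 0.17, adjusted p = 1; exact permutation p = 0.0571). Igf1 was at 10.24, 9.98, 9.80 and 9.99 in mutant hearts and 10.33, 10.45, 10.30 and 10.23 in control hearts (log2 FC −0.32, SE 0.13, adjusted p = 1).

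Igfbp4 also had non-overlapping hearts at E13.5, at 11.43, 11.37, 11.36 and 11.41 in mutant hearts and 11.61, 11.52, 11.52 and 11.49 in control hearts. The difference was small (log2 FC −0.14, SE 0.09, adjusted p = 1), and the exact permutation test gave p = 0.0286. Non-overlap was found for 4.08% of all genes at this stage, and for 2 of the 10 members. The remaining members, Igf2, Igf1r, Igf2r, Igfbp2, Igfbp5 and Igfbp7, had log2 FCs between −0.14 and 0.21 at E13.5.

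The mutant effect was not shown to differ between the stages for any member. The difference in log2 FC, E13.5 minus E11.5, was 0.64 for Igfbpl1 (95% CI 0.22 to 1.05, unadjusted p = 0.00559, adjusted p = 1) and −0.40 for Igfbp3 (95% CI −0.90 to 0.10, adjusted p = 1). 0 members and 0% of all genes were called for this difference by limma, and 790 genes had an unadjusted p under 0.05.

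Between E11.5 and E13.5, Igfbp3, Igfbp4 and Igfbp7 were higher and Igfbpl1 lower at the later stage in hearts of both genotypes. In mutant hearts 1 of 10 members was called lower and 3 higher, against 12.8% and 16.8% of all genes, and in control hearts 1 was lower and 3 higher, against 12.3% and 16.5%. The share called lower is near that of all genes, so it is no result about the members. The arrays differed in spread between the stages (SD over probe sets 2.38 to 2.42 at E13.5 and 2.18 to 2.27 at E11.5), so the stages may have been normalised apart, and stage and array batch cannot be told apart. Quantile and cyclic loess normalisation over all 16 arrays were therefore set beside each change. Under either, the count called lower rose to 3 and the count called higher fell to 1 in mutant hearts, and Igfbp4 lost its call in control hearts. Of all 19937 genes, 1939 were called lower in mutant hearts after quantile and 2000 after loess normalisation. With so few members, the counts called higher, and the counts under either normalisation, are no result about the members either.

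Igfbp7 averaged 10.56 ± 0.19 at E13.5 and 9.63 ± 0.36 at E11.5 in mutant hearts (SD, n = 4 each), a log2 FC of 0.94 (adjusted p = 0.000241). In control hearts it averaged 10.70 ± 0.07 at E13.5 and 9.94 ± 0.15 at E11.5, a log2 FC of 0.76 (adjusted p = 0.00122). It was called under both normalisations, at 0.69 to 0.70 in mutant hearts and 0.51 to 0.53 in control hearts. Igfbp3 averaged 10.75 ± 0.30 at E13.5 and 10.08 ± 0.34 at E11.5 in mutant hearts (log2 FC 0.67, adjusted p = 0.00516), and 10.30 ± 0.10 at E13.5 and 9.23 ± 0.15 at E11.5 in control hearts (log2 FC 1.07, adjusted p = 0.000161). The mutant change was no longer called after quantile or loess normalisation (log2 FC 0.42 in both), whereas the control change was. Igfbp4 averaged 11.39 ± 0.03 at E13.5 and 10.86 ± 0.08 at E11.5 in mutant hearts (log2 FC 0.53, adjusted p = 0.000224), and 11.53 ± 0.05 at E13.5 and 10.97 ± 0.14 at E11.5 in control hearts (log2 FC 0.57, adjusted p = 0.000128). Both changes lost the call after either normalisation (0.30 in mutant hearts and 0.32 to 0.33 in control hearts).

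Igfbpl1 averaged 7.86 ± 0.19 at E13.5 and 8.67 ± 0.23 at E11.5 in mutant hearts (log2 FC −0.81, adjusted p = 0.000344), and 8.52 ± 0.17 at E13.5 and 9.97 ± 0.18 at E11.5 in control hearts (log2 FC −1.45, adjusted p = 2.7e-06). It was called under every alternative, in both genotypes. By level, control E11.5 hearts were highest (9.78 to 10.13), mutant E11.5 hearts (8.43 to 8.95) overlapped with control E13.5 hearts (8.32 to 8.72), and mutant E13.5 hearts were lowest (7.74 to 8.15). For Igfbp3 the levels ran down through mutant E13.5 (10.39 to 11.04), control E13.5 (10.19 to 10.43), mutant E11.5 (9.64 to 10.40) and control E11.5 (9.10 to 9.44), with overlap between neighbours among the first 3 groups and none between the last pair.

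**Figure D3:**
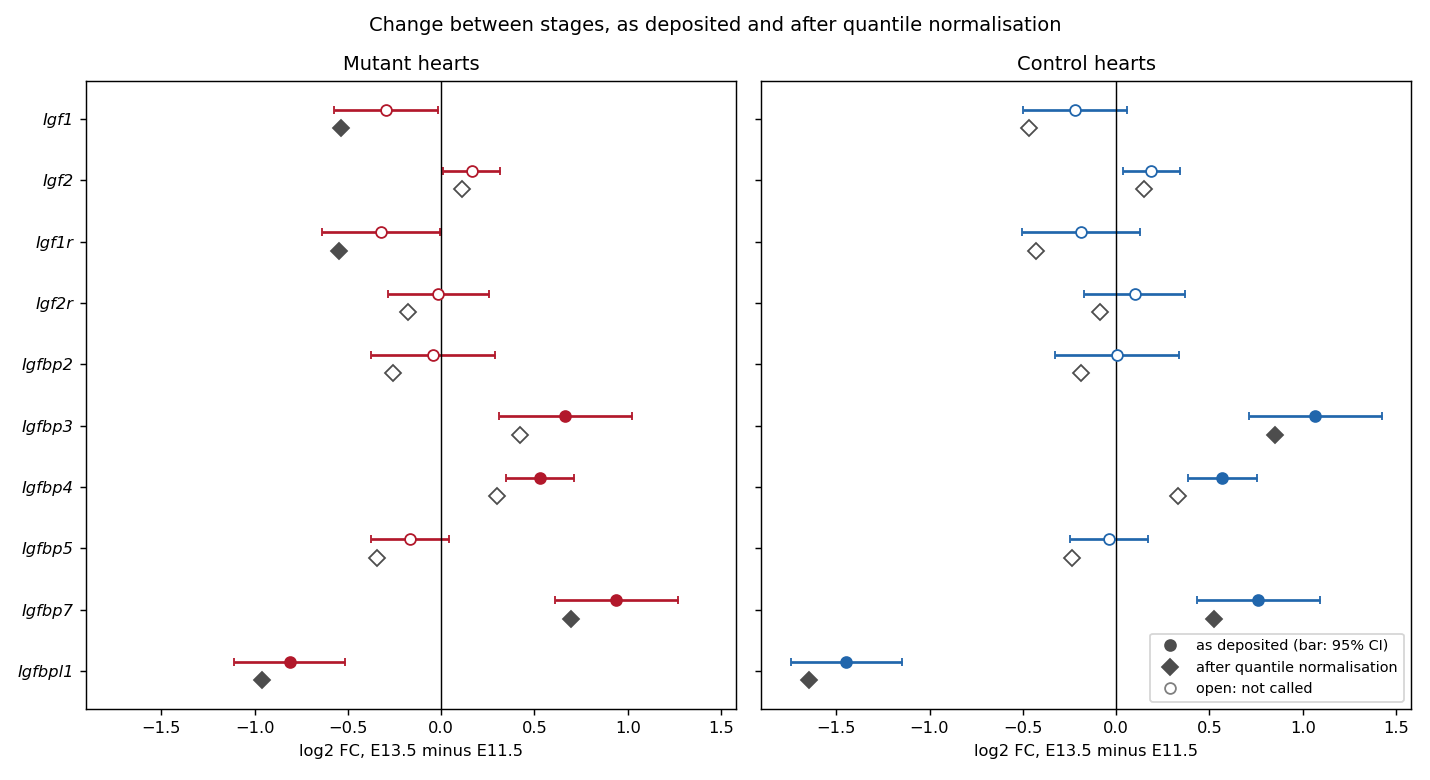
Log2 FC between stages, E13.5 minus E11.5, in mutant (left) and control (right) hearts; circles are the deposited values with 95% confidence intervals, diamonds the same after quantile normalisation, and filled symbols were called. Igfbpl1 fell and Igfbp7 rose in both genotypes under both, while Igfbp4 was called only on the deposited values.

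The other members were not called on the deposited values. Igf2 was higher at E13.5 by 0.16 in mutant hearts and 0.19 in control hearts (adjusted p = 0.0792 and 0.0459), below the fold-change threshold, and its direction turned under loess normalisation (−0.0044 in mutant and −0.015 in control hearts). Igf1 (log2 FC −0.29) and Igf1r (−0.32) in mutant hearts were called lower after quantile or loess normalisation (Igf1 −0.54, Igf1r −0.55 and −0.56), and Igf1 also without the hearts that stood apart (−0.51). In control hearts both were also lower under every alternative, at −0.47 to −0.16 for Igf1 and −0.43 to −0.11 for Igf1r, without a call. Igf2r, Igfbp2 and Igfbp5 differed by −0.17 to 0.10 in either genotype on the deposited values, and the direction of Igf2r and Igfbp2 in control hearts turned under both normalisations (−0.09 and −0.13 for Igf2r, −0.19 and −0.22 for Igfbp2). By range, Igf2 and Igfbp7 in all E13.5 hearts (13.61 to 13.70 and 10.29 to 10.77) lay above all E11.5 hearts (13.44 to 13.53 and 9.33 to 10.15). Igfbp4 was highest in control E13.5 hearts, then mutant E13.5 hearts, then the E11.5 groups, which overlapped. For Igf1, Igf1r, Igf2r, Igfbp2 and Igfbp5 each group overlapped with its neighbour in the order of means. All 5 macrophage markers were called higher at E13.5 in both genotypes (median log2 FC 1.05 in mutant and 0.88 in control hearts). Of 6 epicardial markers, 2 were called higher in each genotype, Tbx18 and Msln, with list medians of −0.10 in mutant and −0.21 in control hearts. Of 6 cushion and valve markers, Postn was called higher in both genotypes and Has2 lower in control hearts, with medians of −0.27 and −0.36. Of 6 smooth muscle and pericyte markers, Pdgfrb was called higher in both genotypes and Tagln lower in mutant hearts, with medians of −0.16 and 0.04. Their part in the stage changes was not tested.

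Promoter windows of 300 bases, 250 before to 50 after the start, were read from RefSeq (GRCm38.p6) for 9 of the 10 members, 13 windows in all. Those of the 3 binding proteins called higher at E13.5 in both genotypes on the deposited values are shown. Among the 3, only Igfbp7 kept the call in both genotypes after quantile or loess normalisation. Capitals mark matches to the TATA box TATAAA or the GC box GGGCGG on either strand (TTTATA and CCGCCC as reverse complements). Igfbp3 is at chr11:7213874-7214173 on the minus strand, Igfbp4 at chr11:99040994-99041293 on the plus strand and Igfbp7 at chr5:77407996-77408295 on the minus strand.
Igfbp3: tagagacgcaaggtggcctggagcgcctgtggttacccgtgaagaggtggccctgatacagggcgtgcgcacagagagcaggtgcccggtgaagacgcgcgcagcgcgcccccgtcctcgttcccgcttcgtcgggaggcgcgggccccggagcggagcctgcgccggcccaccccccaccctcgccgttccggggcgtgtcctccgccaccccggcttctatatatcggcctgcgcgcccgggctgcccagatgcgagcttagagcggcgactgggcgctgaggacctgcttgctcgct
Igfbp4: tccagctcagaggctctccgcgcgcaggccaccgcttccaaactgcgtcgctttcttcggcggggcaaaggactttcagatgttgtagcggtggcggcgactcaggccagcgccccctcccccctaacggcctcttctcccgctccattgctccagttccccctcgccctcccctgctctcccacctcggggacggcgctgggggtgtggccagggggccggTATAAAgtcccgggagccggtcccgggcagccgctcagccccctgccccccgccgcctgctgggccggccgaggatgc
Igfbp7: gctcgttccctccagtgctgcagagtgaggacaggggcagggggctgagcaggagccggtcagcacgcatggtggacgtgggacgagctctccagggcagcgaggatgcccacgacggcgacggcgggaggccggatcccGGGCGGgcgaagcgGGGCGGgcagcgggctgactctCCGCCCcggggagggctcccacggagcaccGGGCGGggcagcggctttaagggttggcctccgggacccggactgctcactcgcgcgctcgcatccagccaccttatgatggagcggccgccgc
Igfbp4 held 1 TATA box, and Igfbp7 held 4 GC boxes and no TATA box. Igfbp3 held neither string in this window. Of 32851 promoter windows of all genes, 13.6% held a TATA box and 35.7% a GC box, against 7.69% and 46.2% of the member windows. Their CpG counts were 37, 27 and 33, in the order shown, against a median of 18 over the 13 member windows and 7 over all windows. Members that were not called between stages on the deposited values had counts above, within and below the range of 27 to 37. Examples were 48 for Igf1r (above), 34 for Igf2r (within), 10 for Igfbp5 and 6 for Igf1 (both below). A match is a description of the letters, not a site.

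Genes whose pattern was most like Igfbpl1 over the 16 hearts, by Pearson correlation of log2 levels, were Grin3a (r = 0.93), an NMDA receptor subunit, Ogfrl1 (r = 0.93) and Pcsk6 (r = 0.91), a proprotein convertase. At E11.5 Grin3a was called lower in mutant hearts (log2 FC −0.97, adjusted p = 0.00238), and Ogfrl1 passed on adjusted p but not on the fold change (log2 FC −0.49, adjusted p = 0.0342). Those most like Igfbp3 were Mr1 (r = 0.94; log2 FC 1.23 at E11.5, adjusted p = 0.00279), Myg1 (r = 0.94; log2 FC 0.14) and Sparcl1 (r = 0.94; log2 FC 0.72, adjusted p = 0.0433). The points share stage and genotype groups and no p is given. None of the nearest measured protein-coding genes on either side of the members was called at E11.5. For Igf1 and Igf2r a closer protein-coding gene was not measured. Over all genes 0.15% were called lower and 0.1% higher, so the absence of calls is no result about the neighbours. Igfbp1, beside Igfbp3, differed by 0.06 (adjusted p = 0.957) and Tns3, on the other side, by −0.07. Igfbp1 was dim, averaging 5.65 in mutant and 5.60 in control hearts. Aldh1b1 and Ccdc180, beside Igfbpl1, differed by 0.16 and 0.04.

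Of 44 other genes of the pathway listed, 38 were measured, and none was called in mutant against control hearts at E11.5 or E13.5 (limma; unadjusted p under 0.05 for Ins2, Irs1 and Rptor at E11.5 and Dlk1 at E13.5). The median log2 FC of the 38 genes was 0.02 at each stage. Ins2, insulin and the gene beside Igf2, had the smallest p at E11.5 (log2 FC 0.45, adjusted p = 0.169), followed by Rptor, the mTORC1 scaffold (log2 FC 0.27, adjusted p = 0.437). Ins2 was dim, averaging 6.84 in mutant and 6.38 in control hearts at E11.5, below the medians of the arrays (6.96 to 7.12). At such levels the signal may be background. Dlk1, an imprinted growth gene, had the smallest p at E13.5 (log2 FC 0.47, adjusted p = 0.74). Neither Igfbp1 nor Igfbp6, nor Pappa, the protease of IGFBP4, was called in that comparison. Igfbp1 (group means 5.60 to 5.83) and Igfbp6 (6.19 to 6.72) were also below the medians of the arrays.

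**Figure D4:**
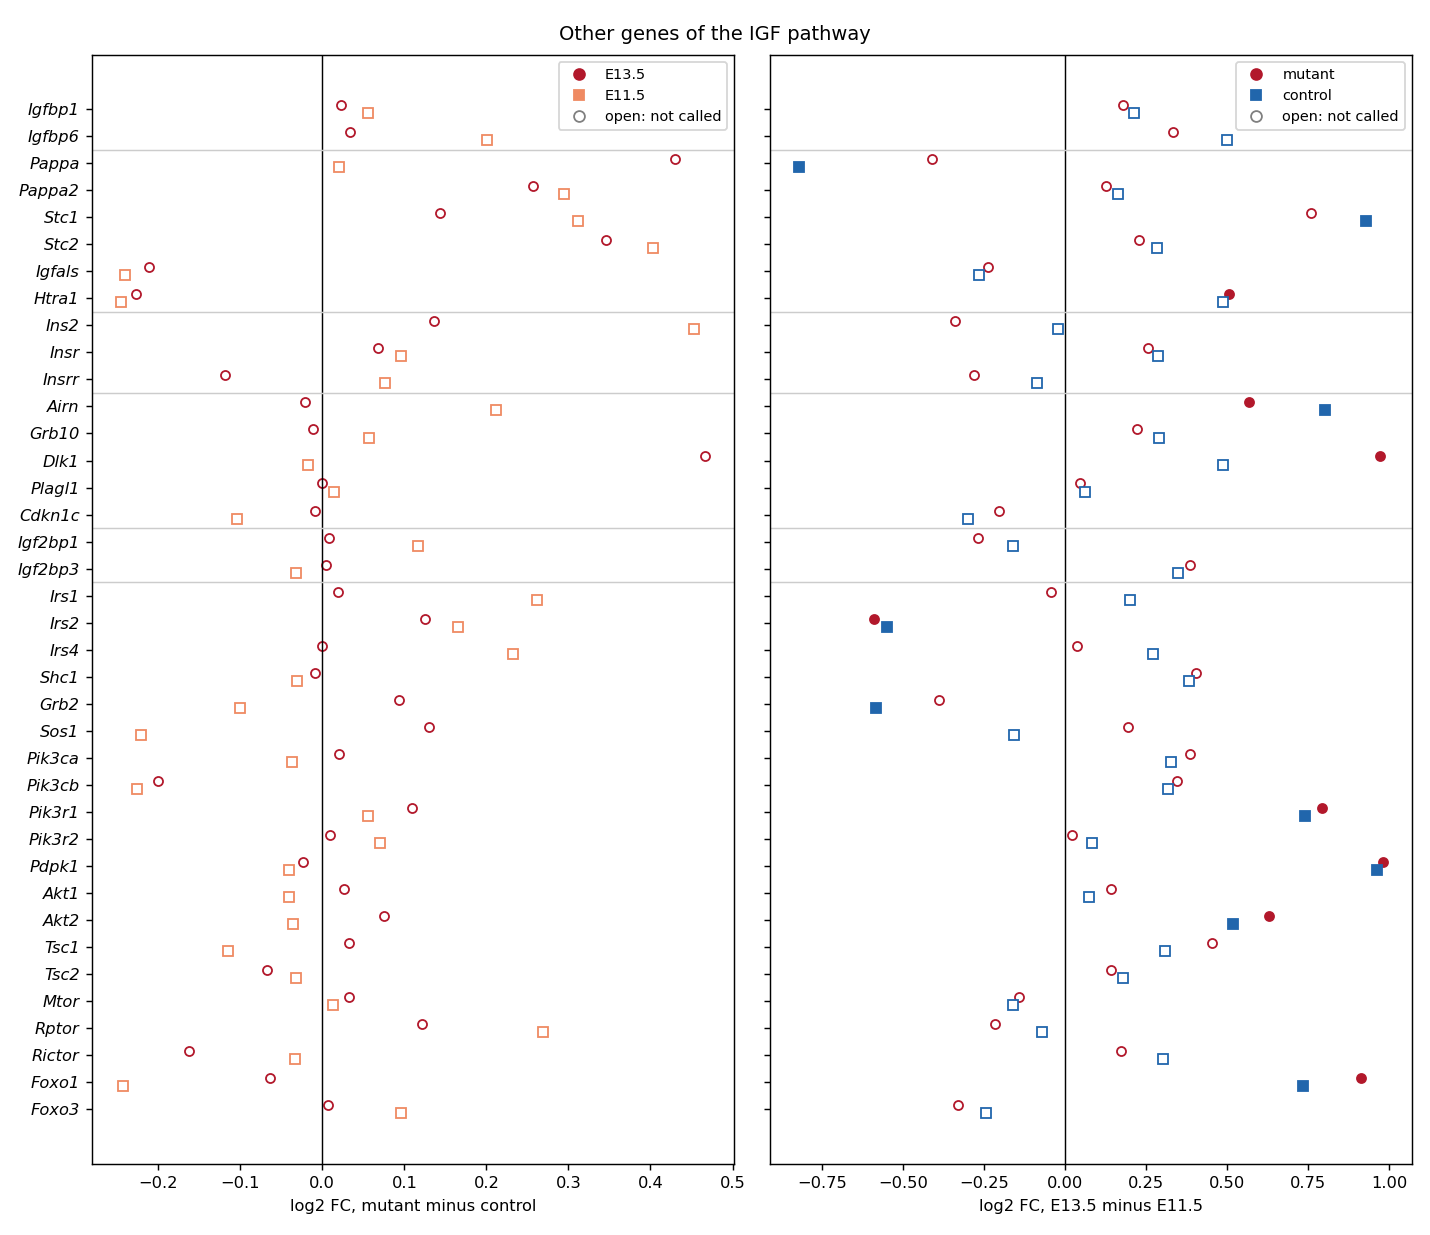
Log2 FC of 38 other genes of the IGF pathway, mutant minus control (left, at E13.5 and E11.5) and E13.5 minus E11.5 (right, in mutant and control hearts), with lists separated by lines and filled symbols called. None is filled on the left, and 8 genes in mutant hearts and 9 in control hearts are filled on the right.

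Between stages, 7 of the 38 were called higher and 1 lower in mutant hearts, and 6 higher and 3 lower in control hearts, with median log2 FCs of 0.18 and 0.24. Over all genes 16.8% were called higher and 12.8% lower in mutant hearts, and 16.5% and 12.3% in control hearts, so the counts called higher are near the share of all genes and are no result about the pathway. Called higher in both genotypes were Pdpk1, the kinase that activates AKT (log2 FC 0.98 in mutant and 0.96 in control hearts), Pik3r1, the PI3K regulatory subunit (0.79 and 0.74), Foxo1, a transcription factor restrained by AKT (0.91 and 0.73), Akt2 (0.63 and 0.52) and Airn, the noncoding RNA that overlaps Igf2r (0.57 and 0.80). Irs2, an adaptor of the receptors, was lower in both (−0.59 and −0.55). In mutant hearts Dlk1 (0.97) and Htra1, a protease (0.51), were also called higher, with 0.49 and 0.49 in control hearts, where neither was called. In control hearts Stc1, an inhibitor of PAPP-A, was also called higher (0.76 in mutant and 0.93 in control hearts), and Pappa (−0.41 and −0.82) and Grb2, an adaptor (−0.39 and −0.58), lower. The difference between genotypes was not called for any of them. After quantile normalisation 4 of the 38 were called lower and 4 higher in mutant hearts, and 4 lower and 4 higher in control hearts. Over all 19937 genes, 1939 were then called lower and 2310 higher in mutant hearts, and 1906 and 2277 in control hearts. After loess normalisation 4 of the 38 were called lower and 4 higher in mutant hearts, and 4 and 2 in control hearts. Over all genes the loess counts were 2000 and 2245 in mutant hearts, and 1951 and 2168 in control hearts. The pathway counts under either normalisation are no result about the pathway. Pdpk1 (higher), Irs2 and Grb2 (both lower) were called in both genotypes under both normalisations, while Akt2, Htra1 and Stc1 were called under neither. Foxo1 and Pik3r1 kept both calls after quantile normalisation but only the mutant call after loess normalisation. Airn kept only the control call under both. Dlk1 kept its mutant call and Pappa its control call under both. Foxo3 and Igf2bp1 in mutant hearts, and Cdkn1c in control hearts, were called lower under both normalisations but not on the deposited values.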

How the data were processed

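Whole hearts of 4 groups were hybridised to Affymetrix Mouse Gene 1.0 ST arrays (16 arrays, 4 per group). The authors normalised them with RMA (affy package) and deposited log2 values, which were used as deposited. Versions and whether the stages were normalised together are not given in the sources used here. Of 34760 probe sets, 21640 named 1 gene, 1321 several and 11799 none. A gene was read through its brightest probe set naming 1 gene. limma 3.58.1 in R 4.3.3 (lmFit, eBayes) was fitted to all 16 hearts with 4 group means and 12 residual degrees of freedom, adjusted with Benjamini-Hochberg over all probe sets, and a call needed both an adjusted p below 0.05 and a change of over 0.5 in log2 units, except that the difference between stages needed the adjusted p alone. Single-member differences were also tested by a two-sided exact permutation test, 20 in all, unadjusted. The script was tested on simulated data. Labels do not say whether the hearts shared litters. The number of arrays limits precision. The 10 members, pathway and marker lists were chosen with earlier results of these data known. Every member, every called pathway gene (otherwise the 2 with the smallest p) and the 3 genes most like the 2 members with the smallest p were named. Alternatives comprised each stage alone, another prior, array weights, quantile, loess and median normalisation, filters, the replicate number as a block, a Y-linked covariate and leaving out each heart. Leaving out the 3 hearts that stood apart was added after seeing the data. Figures were drawn with matplotlib 3.10.9.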

Additional observations from a re-analysis of the deposited data

Results flagged for a closer look

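In 3 of the 40 groups of 4 hearts examined, 1 heart lay far from the others by Dixon's test, and chance gives about 1 in 20 groups. Igf1r in mutant E13.5 replicate 2 was low, at 10.477, where the other 3 hearts lay at 10.671 to 10.694. Igfbp2 in control E13.5 replicate 5 was low, at 9.0383, against 9.1717 to 9.1842 in the others. Igfbpl1 in mutant E13.5 replicate 3 was high, at 8.1456, against 7.7425 to 7.7758 in the others, and it remained below the lowest control heart of that stage.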

How the results depend on the processing

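Of 1420 member values under the alternatives, 1346 kept their direction and side of the threshold, 26 lost a call, 7 gained one and 41 turned direction. At E11.5 the count of members called higher was 0 with each stage fitted alone, with array weights, with arrays centred on the median, with the replicate block, with the Y-linked covariate and without the hearts that stood apart, and 0 to 1 with each heart left out; the count called lower was 0 with each stage alone. At E13.5 the count called lower was 1 with array weights. In mutant hearts between stages, the count called lower was 3 with quantile and loess normalisation and 2 without the hearts that stood apart, and the count called higher was 1 with either normalisation. Over all 19937 genes, 1939 were called lower and 2310 higher in mutant hearts with quantile normalisation, and 2000 and 2245 with loess. With so few members, these member counts are no result about the family. The replicate block gave Igfbp3 an adjusted p of 0.107. The numbers did not pair the samples (correlations of deviations −0.0596 to 0.00816), and control E13.5 replicate 5 has no mutant of its number.

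None of the values that turned direction was called. The largest in size were those of Igfbp2 between stages in control hearts (−0.19 with quantile and −0.22 with loess). Mutant minus control at E11.5: Igf2 −0.012 with loess, and Igf2r −0.0020 to 0.16 with a heart left out. At E13.5: Igf2 −0.0014 with quantile, −0.0013 with loess, −0.011 without the hearts apart and −0.011 to 0.018 with a heart left out, Igf2r −0.088 to 0.021 and Igfbp5 −0.021 to 0.050. For the difference between stages: Igf2 0.011 with loess and Igfbp4 0.0092 without the hearts apart, and, with a heart left out, Igf1 −0.16 to 0.015, Igf1r −0.26 to 0.023, Igfbp2 −0.14 to 0.089 and Igfbp4 −0.092 to 0.017. Between stages in mutant hearts: Igf2 −0.0044 with loess, Igf2r 0.039 and Igfbp2 0.0098 with median centring, and Igf2r −0.10 to 0.057 and Igfbp2 −0.14 to 0.070 with a heart left out. In control hearts: Igf2 −0.015 with loess, Igf2r −0.085 with quantile and −0.13 with loess, Igfbp2 −0.19 with quantile, −0.22 with loess, −0.044 with the Y-linked covariate and −0.0063 without the hearts apart, Igfbp5 0.0066 with median centring, and Igfbp2 −0.13 to 0.086 and Igfbp5 −0.087 to 0.041 with a heart left out. The cause was not tested.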
